A study of Arabidopsis thaliana with 8 samples.

Results

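The class III homeodomain leucine zipper (HD-ZIP III) genes of *Arabidopsis* and a pair of genes that they activate were followed across the 8 RNA-seq libraries of the series. The 7 genes were chosen by identifier from the 37361 genes counted: *PHABULOSA* (*PHB*, AT2G34710), *PHAVOLUTA* (*PHV*, AT1G30490), *REVOLUTA* (*REV*, AT5G60690), *CORONA* (*CNA*, AT1G52150), *ATHB8* (AT4G32880), *LITTLE ZIPPER 1* (*ZPR1*, AT2G45450) and *LITTLE ZIPPER 3* (*ZPR3*, AT3G52770). All 7 passed the filter on low counts, *ZPR3* with 0 to 68 counts in a library, and were among the 22744 genes tested.

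The libraries came from whole seedlings of the Columbia-0 accession labelled as wild type (WT), as the T-DNA insertion line *fry1-6*, or as a double mutant, *fry1-6 rdr1-1* or *fry1-6 rdr6-11*, with 2 replicates per genotype. Every mutant library thus carries *fry1-6*, and no library carries *rdr6-11* or *rdr1-1* alone. *FRY1* encodes a phosphatase whose loss lets a nucleotide accumulate that inhibits 5′ to 3′ exoribonucleases, and *RDR6* and *RDR1* encode RNA-dependent RNA polymerases that make double-stranded RNA for siRNA production. The labels give an age of 12 days, a temperature of 23 °C and 16 h of light a day, and in another field a stage of 2 weeks, while the methods of the study give other growth conditions and another library kit. The genotype entry of both libraries titled as the *rdr1* double mutant reads as the *rdr6* double mutant, and their titles were followed. Nothing in the labels ties the replicates to separate batches or plants, so the p-values measure the spread between these libraries.

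HD-ZIP III proteins are transcription factors that promote the upper (adaxial) side of leaves, the shoot meristem and xylem formation. Their transcripts carry a site complementary to the miRNAs miR165 and miR166, which guide AGO1 to cut them and so keep them out of the lower (abaxial) side. *PHB*, *PHV* and *REV* act mainly in leaf polarity and meristem formation, *CNA* in meristem size and vascular patterning, and *ATHB8* in procambium and xylem. Little zipper proteins have a leucine zipper but no DNA-binding domain. Their genes are activated by HD-ZIP III proteins, and they bind these proteins and keep them off DNA, which closes a feedback loop.

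The miRNAs and their sites are shown because the site is what the 5 HD-ZIP III genes share, and its few differences can be read beside the results of each gene. The 7 miR166 loci of the TAIR10.1 annotation (RefSeq) encode 1 mature sequence, given here for *MIR166A* (chr2:19176241-19176261, plus strand), and the 2 miR165 loci encode another, given for *MIR165A* (chr1:78932-78952, minus strand). Capitals mark the seed, bases 2 to 8, which both share. The miRNAs differ by C17T, with the miR165 base first and positions counted from the 5′ end.
miR166: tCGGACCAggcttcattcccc
miR165: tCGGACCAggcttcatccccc

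The sites below are read 5′ to 3′ on the transcript from TAIR10.1, with capitals at the bases that form Watson-Crick pairs with miR166. Each lies in the coding sequence and is split by an intron, with 11 bases at the end of one exon and 10 bases at the start of the next.
PHB: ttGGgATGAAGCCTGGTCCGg
PHV: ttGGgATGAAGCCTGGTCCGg
REV: ctGGgATGAAGCCTGGTCCGg
ATHB8: ctGGgATGAAGCCTGGTCCGg
CNA: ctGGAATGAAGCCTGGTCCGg

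The *PHB* site spans exons 4 and 5 at chr2:14642530-14642666 (minus strand), and the *PHV* site exons 4 and 5 at chr1:10799330-10799445 (minus strand). The *REV* site lies in exons 4 and 5 at chr5:24398787-24398898 (plus strand), the *CNA* site in exons 4 and 5 at chr1:19412976-19413085 (minus strand), and the *ATHB8* site in exons 5 and 6 at chr4:15866872-15866974 (minus strand). *PHB* and *PHV* have the same 21 bases. *REV* and *ATHB8* share a sequence that differs from that of *PHB* by T1C, and *CNA* differs by T1C and G5A, with the *PHB* base first and positions counted from the 5′ end of the site. The G5A change gives *CNA* 1 more Watson-Crick pair with miR166, so that it has 3 mismatches to miR166 and 4 to miR165, whereas the other 4 sites have 4 and 3. These counts take a G:U pair as a mismatch. Of the mismatches to miR166, 1 in *CNA* and 2 in each of the other 4 sites are G:U pairs. With G:U pairs allowed, all 5 sites have 2 mismatches to miR166, at its positions 20 and 21. Among 1 transcript from each of 31342 genes, a site with at most 3 mismatches to either miRNA was found in these 5 genes and in no other (0.016% of the genes), and with at most 4 mismatches in 12 genes. None of the 16 class IV HD-ZIP genes, the relatives that share the START domain, had a site at either limit. The fewest mismatches in *ZPR1* and *ZPR3* were 9 and 10. *ZPR3* encodes a predicted protein of 67 amino acids and *ZPR1* one of 136, against 794 to 852 for the HD-ZIP III proteins. None of the 9 *MIR165* and *MIR166* loci was among the genes analysed here.

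The libraries held between 15069329 and 26285519 counts, so that 3 counts correspond to between 0.114 and 0.199 CPM, the read counts scaled to library size. Chloroplast genes took 0.0342 to 0.173% of the counts in the WT and *fry1-6* libraries and 2.29 to 2.80% in those of both double mutants, a difference that cannot be told apart from genotype. A fit to the nuclear genes alone left every call among the 7 genes as it was. The WT replicates differed more from each other than the replicates of any mutant, with a chi-square per gene of 105.5 against 18.1 to 51.7. *FRY1* itself was measured at 49.1 and 27.5 CPM in WT and at 55.0 to 150.8 CPM in the mutant libraries. Counts over a whole gene include transcript parts on either side of an insertion, so these counts do not check the *fry1-6* label, and the same limit holds for *RDR6* and *RDR1*. *RDR6* was at 39.5 and 20.2 CPM in WT, 12.1 and 20.7 CPM in *fry1-6 rdr6-11* and 11.0 and 19.5 CPM in *fry1-6 rdr1-1*. *RDR1* was at 19.7 and 9.38, 38.9 and 20.9, and 28.8 and 19.5 CPM in the same order, and these values do not settle the genotype entry. Markers of seedling tissues were present, with the mesophyll genes *RBCS1A*, *CAB1* and *RBCS3B* summing to 24004 to 45913 CPM. The meristem genes *WUS* and *CLV3* and the flower genes *AP1* and *AP3* were at 0 in most libraries. The other flower genes followed, *PI* and *AG*, had low counts in most libraries, at 0 to 1.78 and 0 to 0.46 CPM. In bulk seedlings, fewer cells of a type and less RNA per cell cannot be told apart.

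*PHB*, *PHV* and *CNA* transcripts rose in *fry1-6* compared to WT, and *REV* and *ATHB8* did not pass the test. This comparison addresses whether targets of a miRNA are higher in the mutant. Values are CPM after TMM scaling. Genes were tested by quasi-likelihood in edgeR, p-values were adjusted by the Benjamini-Hochberg method over the whole table, and a gene was called at an adjusted p under 0.05. The 3 of 7 genes called higher stand beside 5.03% of all tested genes called higher in the same comparison. The same 3 had both *fry1-6* libraries above both WT libraries, beside 23.3% of tested genes. For 1 gene with 2 libraries a side, the smallest two-sided p of an exact permutation test is 0.333.

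*PHB* was measured at 41.9 and 41.9 CPM in the WT libraries and at 192.3 and 180.5 CPM in those of *fry1-6*. The replicates lay close together and the genotypes were far apart. The means were 41.9 ± 0.0229 and 186.4 ± 8.35 CPM (SD, n = 2 libraries), a 4.45-fold difference (log2 fold change 2.15, SE 0.17, 95% interval 1.75 to 2.56, edgeR adjusted p = 0.00204). An SD of 2 libraries, here with 585 and 683 counts in WT, is a poor measure of precision. *PHB* stayed called when any 1 of the 8 libraries was left out, but not in a fit of the WT and *fry1-6* libraries alone (log2 fold change 2.18, adjusted p = 0.0631).

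*PHV*, the closest relative of *PHB*, was measured at 34.6 and 34.2 CPM in WT and at 73.1 and 66.9 CPM in *fry1-6*, again without overlap. The rise was 2.04-fold (log2 fold change 1.03, SE 0.16, 95% interval 0.64 to 1.41, edgeR adjusted p = 0.0154). Its interval lies below that of *PHB*, although both genes carry the same site. The call was lost when either WT library or either *fry1-6* library was left out, with log2 fold changes of 0.96 to 1.1 and adjusted p of 0.0508 to 0.0932 in those 4 fits, and also in the fit of both genotypes alone (adjusted p = 0.093). *PHB* and *PHV* share a few stretches of sequence with other transcripts, 15 of 3097 and 49 of 3030 windows of 50 bases, so a small part of their reads could have been assigned to either.

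*CNA* was measured at 49.5 and 29.7 CPM in WT and at 107.1 and 96.0 CPM in *fry1-6*. The WT libraries differed from each other by more than the *fry1-6* libraries did, but the genotypes did not overlap. *CNA* rose 2.56-fold (log2 fold change 1.36, SE 0.27, 95% interval 0.73 to 1.99, edgeR adjusted p = 0.0338). The call held in 1 of 8 fits that left out a library, the one without WT replicate 1, and was lost in the fit of both genotypes alone (adjusted p = 0.142), and the log2 fold change ranged from 1.04 without WT replicate 2 to 1.77 without WT replicate 1.

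*REV* was measured at 39.3 and 23.2 CPM in WT and at 43.0 and 33.1 CPM in *fry1-6*, so that the genotypes overlapped. Its log2 fold change was 0.29 (95% interval -0.33 to 0.91, edgeR adjusted p = 0.634), which allows at most a 1.87-fold rise. *REV* shares 67 bases with an antisense neighbour, AT5G60700. *ATHB8* was measured at 38.7 and 24.9 CPM in WT and at 33.0 and 26.4 CPM in *fry1-6*, with a log2 fold change of -0.10 (95% interval -0.68 to 0.49, edgeR adjusted p = 0.885), which allows at most a 1.40-fold rise. Both intervals lie below that of *PHB*. The called *CNA* shares with *REV* and *ATHB8* the T1C difference from the *PHB* site. Whether bases of the site bear on these differences was not tested. *REV*, *CNA* and *ATHB8* were all lower in WT replicate 2 than in WT replicate 1, and the direction of *REV* and *ATHB8* turned with which of the WT libraries was used: the *REV* log2 fold change was -0.046 without WT replicate 2, and that of *ATHB8* was 0.25 without WT replicate 1.

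**Figure D1:**
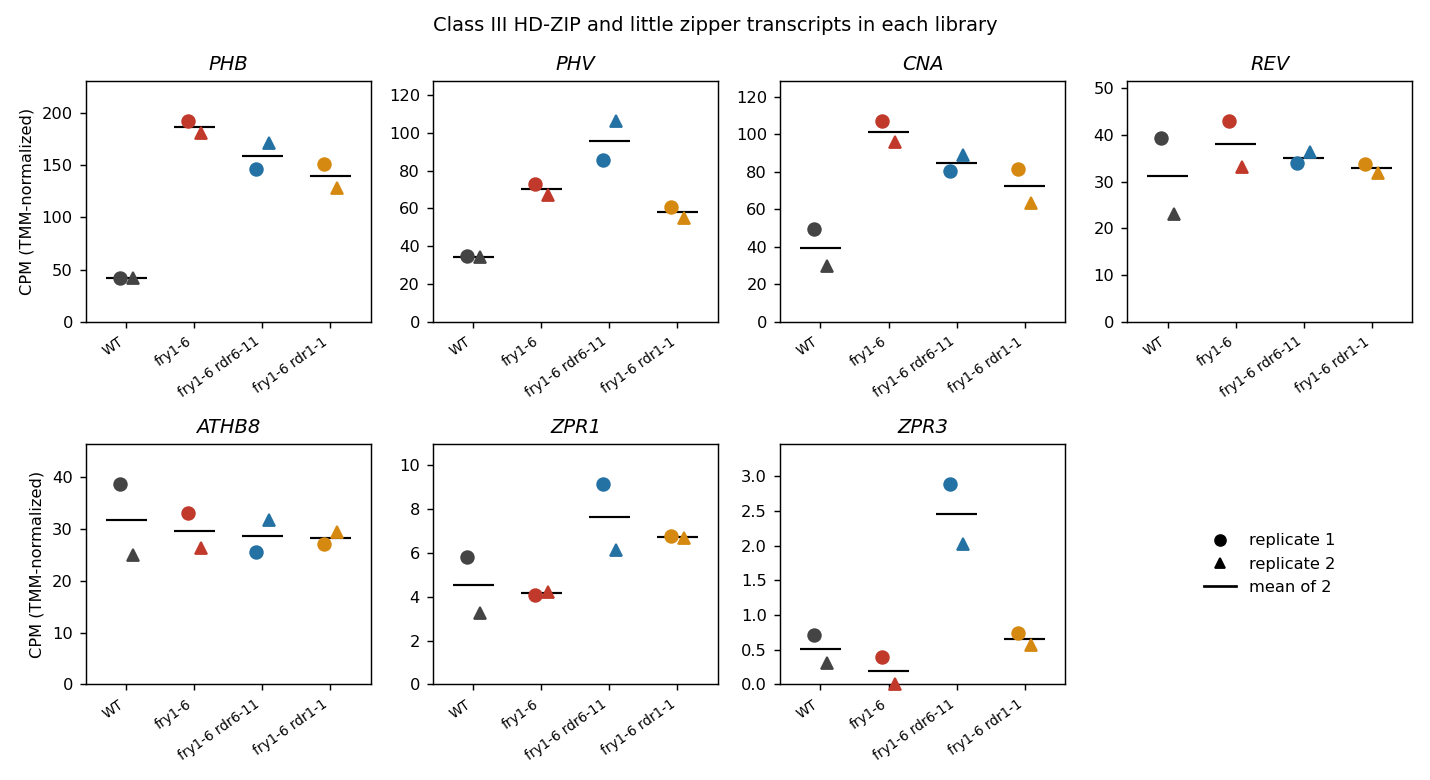
TMM-normalized CPM of each gene (vertical axes, from 0, scaled per gene) in the 2 libraries of each genotype, with circles for replicate 1, triangles for replicate 2 and lines for the mean. *PHB* lies at 41.9 CPM in both WT libraries and between 128.5 and 192.3 CPM in every mutant library, while *REV* and *ATHB8* overlap between WT and every mutant.

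In *fry1-6 rdr6-11* compared to WT, the same 3 HD-ZIP III genes were called higher, beside 10.9% of all tested genes called higher. Both libraries lay above both WT libraries for 5 of the 7 genes (*PHB*, *PHV*, *CNA*, *ZPR1* and *ZPR3*), beside 34.5% of tested genes. The comparisons with WT share the WT libraries. *PHB* was at 146.6 and 171.4 CPM in this double mutant, 3.80-fold above WT (log2 fold change 1.93, SE 0.17, edgeR adjusted p = 0.00195). *PHV* reached its highest levels here, 85.5 and 106.2 CPM, 2.79-fold above WT (log2 fold change 1.48, SE 0.16, edgeR adjusted p = 0.0036). Both calls held without any 1 library and in a fit of the genotypes compared alone, but a replicate block within that fit ended them (adjusted p = 0.0615 for *PHB* and 0.0773 for *PHV*). *CNA* was at 80.6 and 89.0 CPM, 2.14-fold above WT (log2 fold change 1.1, SE 0.26, edgeR adjusted p = 0.0322). The *CNA* call held in 2 of 8 fits that left out a library, those without WT replicate 1 and without *fry1-6* replicate 2, with log2 fold changes of 0.77 (without WT replicate 2) to 1.51 (without WT replicate 1), and was lost in the fit of the genotypes compared alone (adjusted p = 0.0888). *REV*, at 34.1 and 36.3 CPM, and *ATHB8*, at 25.5 and 31.7 CPM, lay within the range of the WT libraries, and their intervals allow at most 1.73-fold and 1.35-fold rises.

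In *fry1-6 rdr1-1* compared to WT, *PHB* and *PHV* were called higher, beside 5.9% of all tested genes, and 4 of the 7 genes (*PHB*, *PHV*, *CNA* and *ZPR1*) had both libraries above both WT libraries, beside 30.7%. *PHB* was at 151.5 and 128.5 CPM, 3.34-fold above WT (log2 fold change 1.74, SE 0.17, edgeR adjusted p = 0.00363), and stayed called without any 1 library, but not in a fit of the genotypes compared alone (adjusted p = 0.0663, and 0.151 with a replicate block). *PHV*, at 60.9 and 55.0 CPM, was 1.68-fold above WT (log2 fold change 0.75, SE 0.16, edgeR adjusted p = 0.038). The *PHV* call was lost in all 8 fits that left out a library, with adjusted p of 0.0697 to 0.207 and log2 fold changes of 0.68 to 0.82, and also with a replicate block (adjusted p = 0.0645). *CNA*, at 81.8 and 63.5 CPM, lay above both WT libraries but did not pass the test (log2 fold change 0.88, 95% interval 0.25 to 1.5, edgeR adjusted p = 0.0925). *REV* (33.8 and 31.9 CPM) and *ATHB8* (27.2 and 29.5 CPM) were again within the WT range.

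The comparison of each double mutant with *fry1-6* addresses whether loss of RDR6 or RDR1 changes these transcripts on top of *fry1-6*. By edgeR, 0 of the 7 genes were called in either comparison, where 4.76% of tested genes were called for *fry1-6 rdr6-11* and 0.264% for *fry1-6 rdr1-1*. At an unadjusted p under 0.05 there were 3 genes for *fry1-6 rdr6-11* (*PHV*, *ZPR1* and *ZPR3*), beside 25.2% of tested genes, and DESeq2 called 1, *ZPR3*. For *fry1-6 rdr1-1* there was 1 gene (*PHB*), beside 15.7% of tested genes, and DESeq2 called 0. Both *fry1-6 rdr6-11* libraries lay below both *fry1-6* libraries for 2 of the 7 genes, beside 29.2% of tested genes, and above for 3, beside 31.7%. Both *fry1-6 rdr1-1* libraries lay below for 3 of the 7, beside 24.3%, and above for 2, beside 25.8%. *PHB* lay below both *fry1-6* libraries in both double mutants, with log2 fold changes of -0.23 (95% interval -0.62 to 0.16, edgeR adjusted p = 0.425) for *rdr6-11* and -0.41 (95% interval -0.80 to -0.02, edgeR adjusted p = 0.293) for *rdr1-1*. *CNA* also lay below both *fry1-6* libraries, with log2 fold changes of -0.26 (95% interval -0.88 to 0.36) and -0.48 (95% interval -1.1 to 0.14). *PHV* lay above both *fry1-6* libraries in *fry1-6 rdr6-11* (log2 fold change 0.45, 95% interval 0.07 to 0.83, edgeR adjusted p = 0.143) and below both in *fry1-6 rdr1-1* (log2 fold change -0.27, 95% interval -0.65 to 0.11, edgeR adjusted p = 0.451). For *PHB*, the sign in *fry1-6 rdr6-11* depended on scaling: total counts without TMM, which moved the median of all genes in this comparison from 0.02 to 0.27, gave 0.02.

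**Figure D2:**
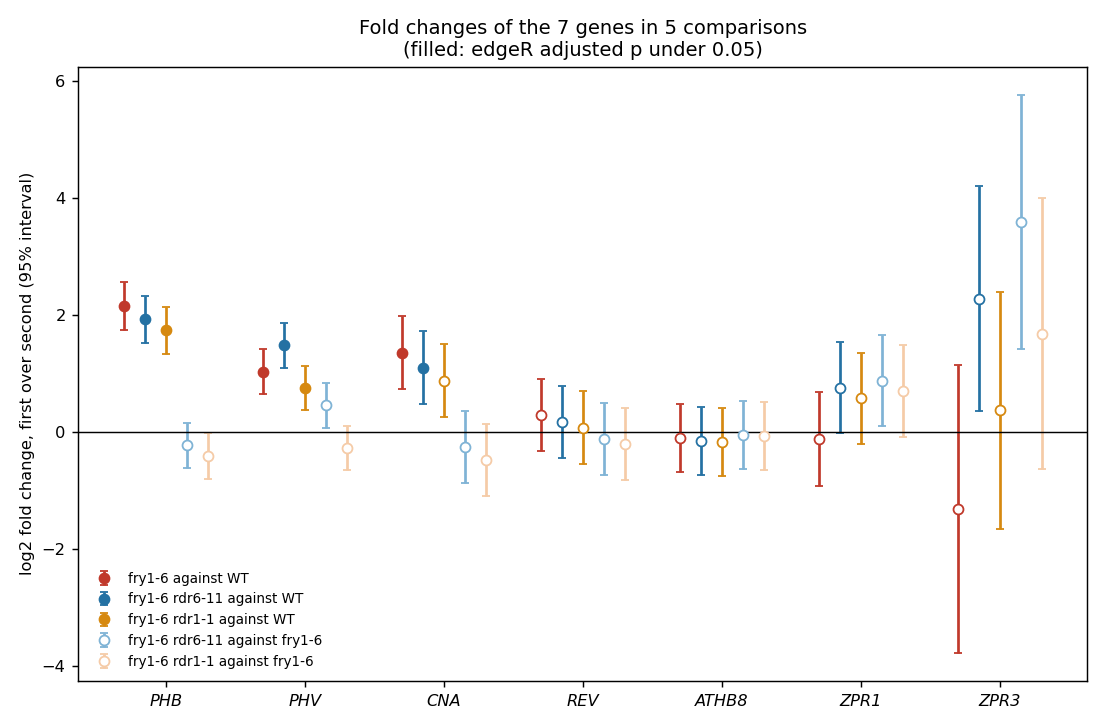
Log2 fold changes of the 7 genes (vertical axis) in the 5 comparisons, with 95% intervals from the edgeR fit and filled points where the adjusted p was under 0.05. *PHB* is called in the 3 comparisons with WT, *REV*, *ATHB8*, *ZPR1* and *ZPR3* in none, and the intervals of *ZPR3* are the widest.

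Levels of different genes were compared per kb of exon, using the lengths deposited with the counts. The summed HD-ZIP III level was 61.5 and 47.1 CPM per kb in WT and 137.0 and 123.3 in *fry1-6*. With *rdr6-11* it was 114.3 and 133.8, and with *rdr1-1* 108.7 and 94.6, with no mutant library overlapping WT. In WT the 5 genes lay close together, from 8.81 ± 3.21 CPM per kb for *REV* to 13.3 ± 0.00727 for *PHB* (SD, n = 2 libraries). Only *PHB* and *PHV* were separate among neighbours in the WT order *PHB*, *PHV*, *CNA*, *ATHB8*, *REV*. In *fry1-6* the order was *PHB* (59.3 ± 2.66), *CNA* (28.0 ± 2.16), *PHV* (22.7 ± 1.42), *REV* (10.7 ± 1.96) and *ATHB8* (9.40 ± 1.48), in which only *REV* and *ATHB8* overlapped. In *fry1-6 rdr6-11*, *PHV* (31.1 ± 4.76) lay above *CNA* (23.4 ± 1.65) in non-overlapping libraries, and in *fry1-6 rdr1-1* *CNA* (20.1 ± 3.57) and *PHV* (18.8 ± 1.36) overlapped.

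Shares of the summed level do not depend on the scaling of libraries. *PHB* made up 21.6 and 28.3% of the HD-ZIP III level in the WT libraries and 40.7 to 46.5% in the 6 mutant libraries. *REV* made up 18.0 and 13.9% in WT and 7.58 to 9.52% in the mutants, and *ATHB8* 19.9 and 16.7% in WT and 6.77 to 9.85% in the mutants. Neither gene's mutant libraries overlapped WT by share, although they did by level. A share also depends on the other HD-ZIP III genes in the sum, so it can fall while the level of the gene itself does not. The share of *CNA* was 22.2 and 17.5% in WT and 18.4 to 21.6% in the mutants, and that of *PHV* was 18.2 and 23.6% in WT and 17.3 to 18.9% in *fry1-6* and *fry1-6 rdr1-1*. In *fry1-6 rdr6-11*, *PHV* made up 24.3 and 25.8%, above every other library.

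The ratio of *PHB* to *PHV*, whose sites are identical, was lower in WT than in every mutant library. The log2 ratio of *PHB* to *PHV* per kb within a library was 0.25 and 0.26 for WT and 1.36 and 1.40 for *fry1-6*. It was 1.28 and 1.19 for *fry1-6 rdr1-1* but 0.75 and 0.66 for *fry1-6 rdr6-11*. None of the 4 genotypes overlapped another in this ratio, but *fry1-6* and *fry1-6 rdr1-1* lay close, at 1.36 and 1.28 for the nearest libraries. No share of other gene pairs without overlap stands beside this, so it cannot be told from background. *REV* and *ATHB8*, whose sites are also identical, stayed near each other, with a log2 ratio of *REV* to *ATHB8* of -0.14 and -0.27 in WT and -0.05 to 0.25 in the mutants. The ratio of *CNA* to *ATHB8*, 0.16 and 0.06 in WT, was 0.91 to 1.67 in the mutants. These ratios are descriptions, since 2 libraries against 2 cannot pass an exact test.

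**Figure D3:**
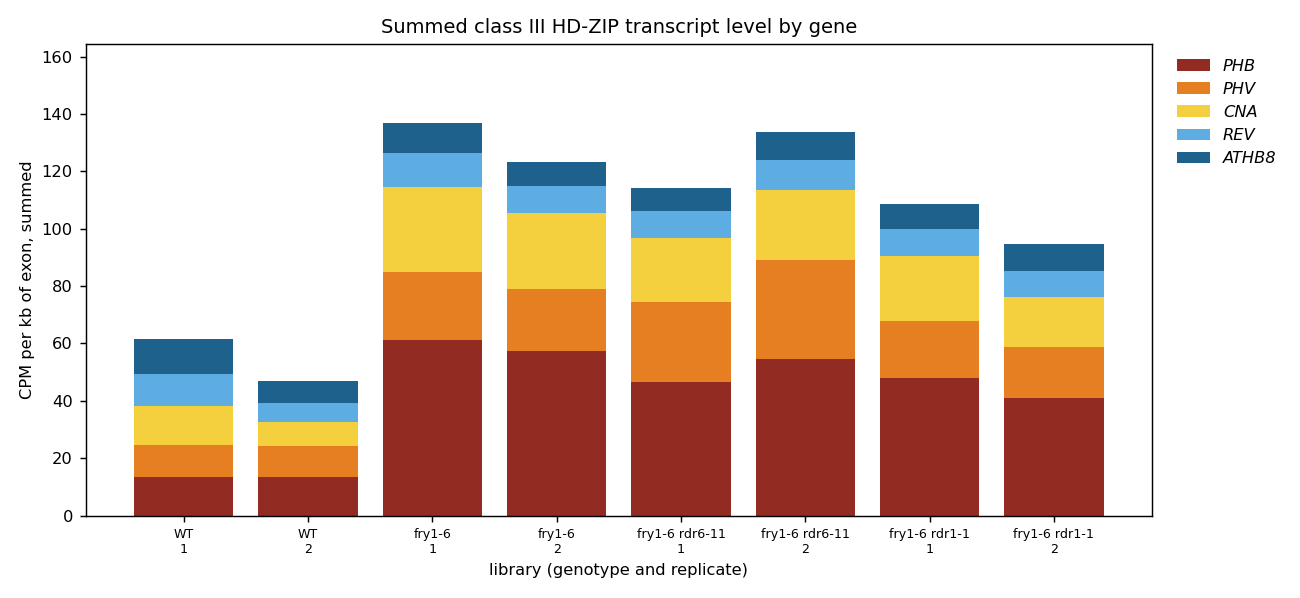
CPM per kb of exon (vertical axis, from 0) of the 5 HD-ZIP III genes, stacked, in each of the 8 libraries. The sums are 47.1 and 61.5 in WT and 94.6 to 137.0 in the mutants, and the *PHB* segment takes 40.7 to 46.5% of each mutant bar.

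*ZPR1* and *ZPR3* did not pass the test in any comparison. *ZPR1* was measured at 5.79 and 3.25 CPM in WT (81 and 53 counts), and at 4.08 and 4.22 CPM in *fry1-6* (61 and 65 counts). The levels were 9.14 and 6.11 CPM with *rdr6-11* and 6.76 and 6.66 CPM with *rdr1-1*. The *fry1-6* libraries lay within the WT range, and the libraries of both double mutants lay above WT and *fry1-6*. The log2 fold change against WT was -0.12 in *fry1-6* (95% interval -0.92 to 0.68), 0.76 in *fry1-6 rdr6-11* (95% interval -0.02 to 1.54, edgeR adjusted p = 0.151) and 0.57 in *fry1-6 rdr1-1* (95% interval -0.21 to 1.35, edgeR adjusted p = 0.317). Against *fry1-6* it was 0.88 for *rdr6-11* (95% interval 0.09 to 1.66, edgeR adjusted p = 0.162) and 0.69 for *rdr1-1* (95% interval -0.09 to 1.48, edgeR adjusted p = 0.366). The upper limit of the 95% interval in *fry1-6* was a 1.6-fold rise of *ZPR1*. Whether *ZPR1* follows the level of the HD-ZIP III genes was not tested.

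*ZPR3* was near the limit of detection, with 10 and 5 counts in WT (0.715 and 0.307 CPM) and 6 and 0 counts in *fry1-6* (0.401 and 0 CPM). It had 68 and 44 counts with *rdr6-11* (2.89 and 2.02 CPM) and 16 and 14 counts with *rdr1-1* (0.741 and 0.566 CPM). The *fry1-6 rdr6-11* libraries held the highest levels, without overlap with any other library. The log2 fold change of *fry1-6 rdr6-11* was 2.27 against WT (95% interval 0.35 to 4.20, edgeR adjusted p = 0.0945) and 3.59 against *fry1-6* (95% interval 1.41 to 5.77, edgeR adjusted p = 0.0742). The latter fold depends on the library with 0 counts. DESeq2 put both past the threshold, with adjusted p of 0.0466 and 0.00421, as did total counts without TMM, with 0.0465 and 0.0482. In *fry1-6* against WT the counts of *ZPR3* were too low to tell a fall from a rise of up to 2.23-fold (95% interval of the log2 fold change -3.78 to 1.15).

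Other genes of the polarity network were also followed. A list of 18 genes held the abaxial KANADI and YABBY families, the auxin response factors *ETT* and *ARF4*, *AS1*, *AS2*, *DRN*, *DRNL*, and the other little zipper genes *ZPR2* and *ZPR4*, of which 13 were tested. In *fry1-6* against WT, 0 were called by edgeR or DESeq2 (1 at an unadjusted p under 0.05), with a median log2 fold change of -0.0012, beside -0.03 over all tested genes. Beside 5.03% of all tested genes called higher by edgeR, 0 of 13 is near the background. In *fry1-6 rdr6-11* against WT, 2 of 13 were called higher, beside 10.9% of all tested genes, with a list median of 0.29 beside 0.04 over all genes. These were *YAB2*, a YABBY gene of the abaxial leaf side (11.5 and 12.3 CPM in WT, 24.9 and 22.8 CPM here, log2 fold change 1.00, edgeR adjusted p = 0.00982), and *KAN1*, an abaxial transcriptional repressor (13.2 and 14.5 CPM against 29.0 and 21.3 CPM, log2 fold change 0.87, edgeR adjusted p = 0.0413). *KAN1* shares 435 bases with an antisense gene, AT5G02555.

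In *fry1-6 rdr1-1* against WT, 2 of the 13 were called higher, beside 5.9% of all tested genes, with a list median of 0.35 beside 0.05 over all genes. *YAB2* was at 24.6 and 25.04 CPM (log2 fold change 1.06, edgeR adjusted p = 0.0144), and *FIL*, another abaxial YABBY gene, at 42.0 and 40.9 CPM against 22.7 and 16.6 CPM in WT (log2 fold change 1.08, edgeR adjusted p = 0.038). *YAB2* was also the 1 of 13 called in *fry1-6 rdr6-11* against *fry1-6*, beside 4.76% of all tested genes. It was at 11.6 and 14.0 CPM in *fry1-6* (log2 fold change 0.89, edgeR adjusted p = 0.0353), and its log2 fold change in *fry1-6* against WT was 0.11. In *fry1-6 rdr1-1* against *fry1-6*, 0 were called by edgeR, 3 had an unadjusted p under 0.05, and DESeq2 called 1. Without 1 library at a time, *YAB2* lost its call in *fry1-6 rdr6-11* against WT when either library of this double mutant was left out, and in *fry1-6 rdr1-1* against WT when any of the 4 double mutant libraries was. Against *fry1-6* it kept its call in 2 of 8 fits, those without a WT library. *FIL* kept its call in 3 of 8 fits, without WT replicate 1 or either *fry1-6* library, and *KAN1* in 2 of 8, without either *fry1-6* library. *ZPR2* and *ZPR4*, at 0.202 to 0.975 and 0.858 to 2.04 CPM, were called in no comparison.

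A second list held 10 genes known downstream of HD-ZIP III factors, among them the class II HD-ZIP genes *HAT1*, *HAT2*, *HAT3*, *ATHB2* and *ATHB4* and the auxin synthesis genes *TAA1* and *YUC5*. Of these, 9 were tested. *YUC5*, a flavin monooxygenase gene, was the only one called in any comparison by edgeR or DESeq2, and it fell in *fry1-6 rdr6-11* against WT, from 1.00 and 2.45 CPM to 0.297 and 0.0919 CPM (log2 fold change -3.10, SE 0.79, edgeR adjusted p = 0.0385), where 7.94% of all tested genes were called lower. It rested on few counts and kept its call in 3 of 8 fits, those without WT replicate 1 or either *fry1-6* library. At an unadjusted p under 0.05 there was 1 gene in this comparison, 1 in *fry1-6 rdr1-1* against *fry1-6* and 0 in the other 3. All 9 had log2 fold changes below 0 in *fry1-6 rdr6-11* against WT (median -0.51, beside 0.04 over all tested genes), but total counts without TMM, which moved the median of all genes to 0.41, left 6 of 9 below 0 (median -0.13). In *fry1-6 rdr1-1* against WT 8 of 9 were above 0 (median 0.26 beside 0.05), and 7 of 9 with DESeq2 size factors. In *fry1-6* against WT 7 of 9 were below 0 (median -0.11 beside -0.03), and 3 of 9 with total counts (median 0.0090). *HAT3*, a direct target of REV, was at 29.0 and 13.5 CPM in WT, 37.6 and 19.0 CPM in *fry1-6* and 14.9 and 14.9 CPM in *fry1-6 rdr6-11*, and *TAA1* at 10.7 and 6.74, 10.3 and 5.78, and 4.89 and 8.92 CPM, with overlap between WT and *fry1-6* for both.

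The class IV HD-ZIP genes have the homeodomain, the zipper and the START domain but no site for miR165 or miR166. Of 16 such genes 11 were tested, and in *fry1-6* against WT edgeR called 0 (0 also at an unadjusted p under 0.05 and 0 by DESeq2), with log2 fold changes from -0.43 to 0.18 and a median of -0.17. Beside 5.03% of all tested genes called higher, 0 of 11 is near the background. The 5 HD-ZIP III genes had a median of 1.03 in this comparison and a range of -0.10 to 2.15. Of these, *ATHB8* (-0.10) lay within the class IV range and *REV* (0.29) near it, although both carry the site. Whether the site bears on the difference between the classes was not tested. In *fry1-6 rdr6-11* against WT, 1 of the 11 was called higher, beside 10.9% of all tested genes, and 1 lower, beside 7.94%. These counts are near the shares over all genes. The higher gene was *HDG7* (25.6 and 27.5 CPM in WT, 41.6 and 44.0 CPM here, log2 fold change 0.69, edgeR adjusted p = 0.0163) and the lower *HDG2* (37.0 and 29.9 CPM, 18.3 and 20.1 CPM, log2 fold change -0.80, edgeR adjusted p = 0.0238). Both overlap antisense genes, *HDG7* over 1571 bases with AT5G52180 and *HDG2* over 1667 bases with AT1G04353, and the counting is not stated to use strand. Both calls were lost without either *fry1-6 rdr6-11* library, and that of *HDG2* also without WT replicate 1 and with total counts. In *fry1-6 rdr1-1* against WT edgeR called 0, beside 5.9% of all tested genes called higher, with 3 at an unadjusted p under 0.05 and 1 by DESeq2. *ATML1*, an epidermal identity gene, was at 94.8 and 67.6 CPM in WT and 82.1 and 62.9 CPM in *fry1-6*.

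**Figure D4:**
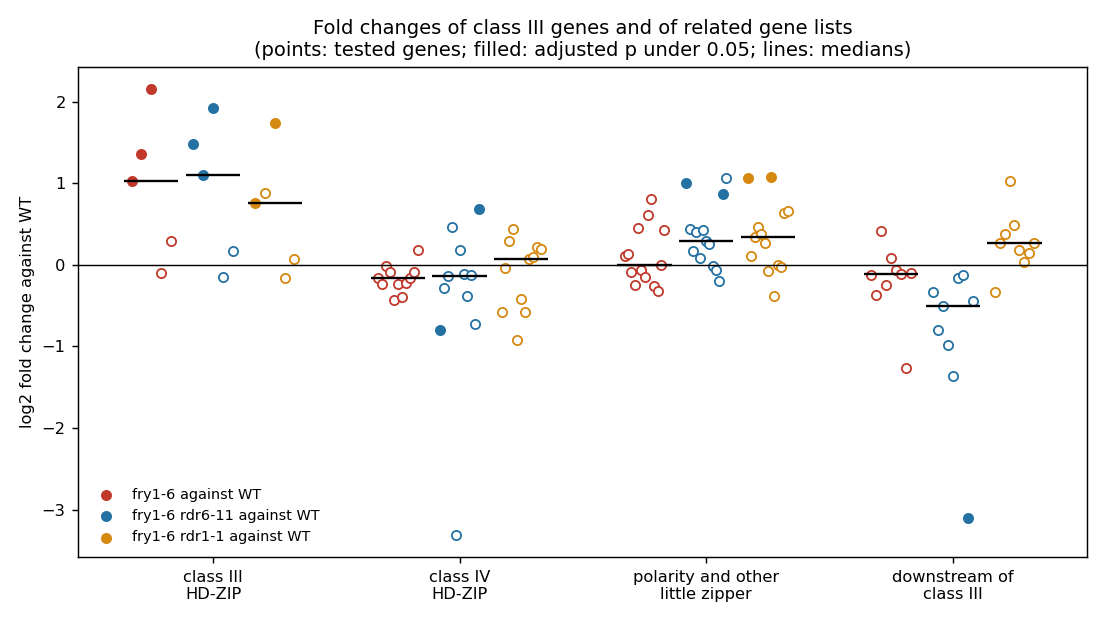
Log2 fold changes against WT (vertical axis) of the tested genes in 4 lists, by mutant, with filled points where the edgeR adjusted p was under 0.05 and lines at the list medians. The HD-ZIP III medians lie at 0.75 to 1.1, and those of class IV between -0.17 and 0.08, where total counts without TMM give class IV 0.25 in *fry1-6 rdr6-11*.

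*AGO1*, which carries miR165 and miR166, was measured at 242.1 and 215.4 CPM in WT and 272.7 and 245.8 CPM in *fry1-6*, and *AGO10*, which sequesters these miRNAs in the meristem, at 70.0 and 36.4 CPM and 64.2 and 45.6 CPM. Neither was called in any of the 5 comparisons by edgeR or DESeq2, or at an unadjusted p under 0.05. The vascular tissues where *ATHB8* acts were followed by markers. The 5 xylem markers (*VND6*, *VND7*, *IRX3*, *XCP1* and *XCP2*) summed to 61.3 to 68.6 CPM in WT and to 39.2 to 51.9 CPM in the mutants, all 5 had log2 fold changes below 0 in each mutant (4 of 5 in *fry1-6 rdr6-11* with total counts), and edgeR called 0 (2 at an unadjusted p under 0.05 in each mutant, and DESeq2 called 1 in *fry1-6* alone). The 4 cambium and phloem markers summed to 213.1 to 313.7 CPM in WT, 182.9 to 198.7 CPM in *fry1-6*, 173.5 to 207.3 CPM in *fry1-6 rdr6-11* and 251.2 to 302.2 CPM in *fry1-6 rdr1-1*. The meristem genes *STM* and *KNAT1* were not called in any comparison, at 2.14 to 4.89 and 2.53 to 6.44 CPM over the 8 libraries. Of the 3 mesophyll genes, only *CAB1*, which encodes a light-harvesting chlorophyll-binding protein, was called lower in *fry1-6 rdr6-11* against WT, beside 7.94% of all tested genes. It was at 19474 and 10723 CPM in WT against 5782 and 4782 CPM (log2 fold change -1.52, edgeR adjusted p = 0.0249). *RBCS1A* (15427 and 9704 CPM in WT, 15243 and 13332 CPM here) and *RBCS3B* (7986 and 6693 CPM, 7205 and 5889 CPM) were not called. The *CAB1* call was lost without WT replicate 1 or either *fry1-6 rdr6-11* library. The 5 root markers summed to 18.3 to 27.8 CPM in WT, 25.6 to 43.3 CPM in *fry1-6*, 38.2 to 48.0 CPM in *fry1-6 rdr6-11* and 41.5 to 43.2 CPM in *fry1-6 rdr1-1*, with 0 called by edgeR, 2 at an unadjusted p under 0.05 in each mutant against WT, and 1 by DESeq2 in *fry1-6* and in *fry1-6 rdr6-11*. The part of these tissue markers in the HD-ZIP III values was not tested. Counts of list genes at an unadjusted p under 0.05 against WT, here and above, have no share of all tested genes beside them. The same holds for counts of members or list genes called by DESeq2 in any comparison. Neither kind of count can be told from that background.

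The mean pattern of the 5 HD-ZIP III genes over the 8 libraries, as centred log2(CPM + 1), was lowest in the WT libraries (-0.42 and -0.84) and highest in *fry1-6* replicate 1 (0.42). The tested genes with the most similar pattern, among those whose log2 CPM averaged 1 or more, were AT3G09450, AT1G55915, AT4G23900, *OTP70* and AT2G43890, with Pearson's r of 0.991 to 0.996 over 8 libraries from 4 genotypes. *OTP70*, a pentatricopeptide repeat gene, was at 16.0 and 8.77 CPM in WT and at 24.6 to 39.3 CPM in the mutants. Within the 7 genes, *PHB* was most like *CNA* (r = 0.929) and *PHV* (r = 0.887), *REV* most like *CNA* (r = 0.726) and *ATHB8* (r = 0.717), and *ZPR1* most like *ZPR3* (r = 0.778). The correlation of *PHB* with *ZPR1* was 0.295 and that with *ZPR3* was 0.175. These coefficients describe 8 libraries that share genotype and depth differences.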

How the data were processed

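RNA-seq of seedlings of 4 genotypes gave 8 libraries. The deposited values are counts for 37361 genes, to which the authors applied no normalization, and gene lengths. Reads were mapped to Araport11 with STAR 2.6, keeping 1 position for a read with several, and counted with featureCounts 1.6.4, per the study's methods and the submitters' processing notes. Strand use in counting is not given in the sources used here.

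Low counts were removed by filterByExpr (minimum count 10, minimum total 15), and libraries were scaled by TMM and fitted by quasi-likelihood to all 8 libraries (edgeR 4.0.16, limma 3.58.1, R 4.3.3), with 4 residual degrees of freedom and a biological coefficient of variation of 27%. The 5 comparisons were two-sided, adjusted over all 22744 tested genes. Fits that leave out a library assume that the lone replicate varies like the other genotypes. DESeq2 1.42.0 was an alternative. CPM values are TMM-normalized. Scripts ran in Python 3.11.15 and were tested on simulated counts. Sequences and exon positions come from TAIR10.1 (RefSeq), whose exon lengths equal the deposited lengths for the 7 genes.

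The 7 genes and the lists were chosen with earlier results of these data known. Genes named were the 7 members, the mutated genes, list genes called in any comparison or defining a list, up to 4 others a list, and the 5 genes most similar in pattern. The alternatives are other scalings, filters, thresholds and tools, a replicate block, a fit of 2 genotypes alone, and each library left out in turn. The crossed block and the block within pairs of genotypes were added after seeing the data. No column belonged to samples of another series. Small RNA data were not analysed here.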

Additional observations from a re-analysis of the deposited data

How the results depend on the processing

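Of 693 recomputed fold changes of the 7 genes, 622 kept their direction and their side of the threshold, 41 lost and 11 gained a call and 19 changed sign. Depth limits *ZPR3*, with 0 to 68 counts in a library. Fitting only the genotypes compared left 0 of 3 calls in *fry1-6* against WT (*PHB* log2 fold change 2.18, adjusted p = 0.0631) and 0 of 2 in *fry1-6 rdr1-1* against WT. An adjusted p under 0.01 left 1 call in each of these. Total counts without TMM gave 5 calls in *fry1-6 rdr6-11* against WT and 1 (*ZPR3*) against *fry1-6*, where DESeq2 and an adjusted p under 0.1 also gave 1. Leaving out 1 library in turn, where the lone replicate is assumed to vary like the other genotypes, gave 1 to 2 calls in *fry1-6*, 2 to 4 in *fry1-6 rdr6-11* and 1 to 2 in *fry1-6 rdr1-1* against WT, and 0 against *fry1-6*. Allowing 4 mismatches in place of 3 gave 12 genes with a site in place of 5. *ZPR3* has no value with at least 10 counts in every library.

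All 19 sign changes were in values that were not called. Under total counts, *ATHB8* became 0.03 (*fry1-6* against WT), 0.231 (*fry1-6 rdr6-11* against WT) and 0.201 (*fry1-6 rdr6-11* against *fry1-6*), *ZPR1* 0.00944 (*fry1-6* against WT), and *PHB* 0.0244 and *REV* 0.138 (both *fry1-6 rdr6-11* against *fry1-6*). Without 1 library, log2 fold changes against WT ranged from -0.0463 to 0.713 for *REV*, -0.383 to 0.252 for *ATHB8* and -0.481 to 0.35 for *ZPR1* in *fry1-6*, from -0.163 to 0.597 for *REV* and -0.44 to 0.196 for *ATHB8* in *fry1-6 rdr6-11*, and from -0.259 to 0.5 for *REV*, -0.452 to 0.183 for *ATHB8* and -0.136 to 1.07 for *ZPR3* in *fry1-6 rdr1-1*. Against *fry1-6* they ranged from -0.313 to 0.0823 for *REV* and -0.259 to 0.113 for *ATHB8* in *fry1-6 rdr6-11*, and from -0.269 to 0.101 for *ATHB8* in *fry1-6 rdr1-1*. The causes were not tested.

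The replicate numbers are not stated to pair the libraries, and deviations of same-numbered libraries correlated at 0.668 between WT and *fry1-6*, at 0.183 between the double mutants and at -0.226 to -0.156 otherwise. With the replicate block, 3, 3, 1, 0 and 0 of the 7 genes were called in the 5 comparisons, against 3, 3, 2, 0 and 0 without it, the lost call being *PHV* in *fry1-6 rdr1-1* (adjusted p = 0.0645). The crossed replicate block gave 3, 3, 2, 0 and 0. The block within the genotypes compared gave 3, 0, 0, 0 and 0.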
